A study of Homo sapiens with 34 samples.

Results

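The RNA-binding, splicing and helicase genes were chosen from the 3 deposited lists of m6Am peaks by gene name alone. A line was a member when its gene name began with RBM, HNRNP, SRSF, DDX, DHX, SF3A, SF3B, PRPF, SNRP, LSM, CPSF, CSTF, CNOT, EXOSC, YTHD, METTL, PABP, PUM or INTS and went on with digits or capital letters only. This gave 52 of 2116 lines, under 45 of 1807 gene names. Of these lines, 40 were among the 1652 m6Am peaks of HEK293T cells, 0 were among the 74 of heat shock and 12 were among the 390 of hypoxia.

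The lists were made from libraries of HEK293T, an established human embryonic kidney cell line, by m6Am-seq, in which capped RNA fragments are enriched with an m7G antibody, treated or not treated with the demethylase FTO and then enriched with an m6A antibody. By the labels, the 34 libraries fall into 21 groups: wild-type, PCIF1-KO, heat shock, hypoxia and untreated cells, each with FTO (+) m6A-IP, FTO (-) m6A-IP, m7G-IP and input, and a CAGE library of the wild-type cells. Each m6A-IP and m7G-IP group had 2 libraries, except for the PCIF1-KO cells, with 1 of each kind. Heat shock meant 43 °C for 2 h with 6 h of recovery, and hypoxia meant 1% oxygen for 24 h. The same untreated libraries served as controls for both stresses, and no peak list of the PCIF1-KO cells was used here. Each list holds 1 set of peaks per condition, with a gene name and the outer span of each peak, introns included, but without strand, read counts or replicates. The reads behind a peak are thus unknown, no spread between replicates can be given and no test between conditions was possible. Each interval printed with a share is its 95% Wilson interval, with lines or gene names as the units counted, and covers counting error only.

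N6,2′-O-dimethyladenosine (m6Am) is found at the first transcribed nucleotide of mRNAs that start with adenosine, next to the m7G cap, where the methyltransferase PCIF1 adds its N6-methyl group and FTO can remove it. A peak of m6Am therefore lies at the 5′ end of a transcript, whereas most m6A lies inside it. Most of the proteins named here act on RNA: snRNPs, PRPF, SF3B, SR and hnRNP proteins carry out or regulate splicing, DEAD-box and DEAH-box helicases remodel RNA and its protein partners, CPSF, CSTF and Integrator proteins make the 3′ ends of transcripts, and the CCR4-NOT complex, the RNA exosome and Pumilio proteins shorten, degrade or silence them. YTHD proteins bind m6A, and METTL proteins are methyltransferases, some of which act on RNA and others on proteins. m6Am on their mRNAs is thus a mark on the transcripts of the RNA processing machinery itself, not on the proteins.

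The first nucleotide is the base at which m6Am can form, so the annotated transcription start sites (TSSs) of 11 of the 12 members of the hypoxia list are shown first. Each line gives 15 bases before and 14 bases after the annotated TSS of the named gene that lies nearest to the 5′ end of the listed span, from the GRCh37 genome and Gencode release 44, on the strand of the gene. The capital letter marks the TSS. The windows are at chr17:56084693-56084722 (minus strand) for SRSF1, chr2:38978622-38978651 (minus) for SRSF7, chrX:47004605-47004634 (plus) for RBM10, chr16:68057121-68057150 (minus) for DDX28, chr5:176943948-176943977 (minus) for DDX41, chr4:24586163-24586192 (minus) for DHX15, chr3:154042262-154042291 (minus) for DHX36, chr2:39103061-39103090 (minus) for DHX57, chr12:69633334-69633363 (plus) for CPSF6, chr9:133569128-133569157 (plus) for EXOSC2 and chr13:37574888-37574917 (plus) for EXOSC8.
SRSF1: gccctcgcagcacccGttgcgctcccgcgc
SRSF7: catgacccgcgtgttAgtctcttcagttcc
RBM10: agagcgcgcttccttAgtaggtggatggtg
DDX28: gtccgtgacgtcactGatgtgcgcttctcc
DDX41: ttcgccgtggcgcgcAtgcgtgcagcaaag
DHX15: cgcgcaggcccagccCtcgtcgccgccgcc
DHX36: aacggaagtgggcgcAcagtggcttccggg
DHX57: gtagctgagccaatcAgaaggcgccgggac
CPSF6: cgcccccccaccgccGctagatccgctgct
EXOSC2: gatatcgcagctcccGactgagctgcgcct
EXOSC8: gcggaacaggcgcgcAggagaggagcggcg
The nearest TSS was an A in SRSF7, RBM10, DDX41, DHX36, DHX57 and EXOSC8, a G in SRSF1, DDX28, CPSF6 and EXOSC2, and a C in DHX15.

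Of the HEK293T members, 11 had a span whose 5′ end fell on an annotated TSS to the base, and 7 of these are shown in the same way to set the start of the peak beside the start of the transcript. The windows are at chr10:13628924-13628953 (plus strand) for PRPF18, chr10:53459341-53459370 (minus) for CSTF2T, chr11:33183023-33183052 (minus) for CSTF3, chr11:61197450-61197479 (minus) for CPSF7, chr17:74722897-74722926 (plus) for METTL23, chr19:46195560-46195589 (minus) for SNRPD2 and chr2:161350304-161350333 (minus) for RBMS1.
PRPF18: catctctctcatcccAgcttccgccggaag
CSTF2T: cggtcgcaagaggacAgacgcctcgaagaa
RBMS1: gggcgcacccaccccAgatgccgcctggca
CSTF3: tcggccggcaggggcGcagccattttaatt
CPSF7: acgccggcggcggggGgggcgggacctggg
METTL23: tcccgcgctgccgctGtgcccatcacttcc
SNRPD2: tagatacgtcagtaaCgcgtcccagaggga
The first 3 of these start with A at the annotated TSS and the other 4 do not. As part of a tie of 11 lines, the 7 do not give the share of A among the 11. An annotated TSS is not the m6Am site itself, and most of these genes have several.

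In wild-type HEK293T cells, m6Am peaks were listed for members of all 6 role groups. Of the 283 gene names in Gencode release 44 that fit the name rule, 37 had a line in the HEK293T list (13.1%, interval 9.64 to 17.5%), beside 7.36% of all 19548 protein-coding names. The share over all names lies below that interval. The members made up 2.42% of the lines of the list (interval 1.78 to 3.28%). Since the lists hold no expression level, how many of the other names had an mRNA in these cells is not known.

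**Figure D1:**
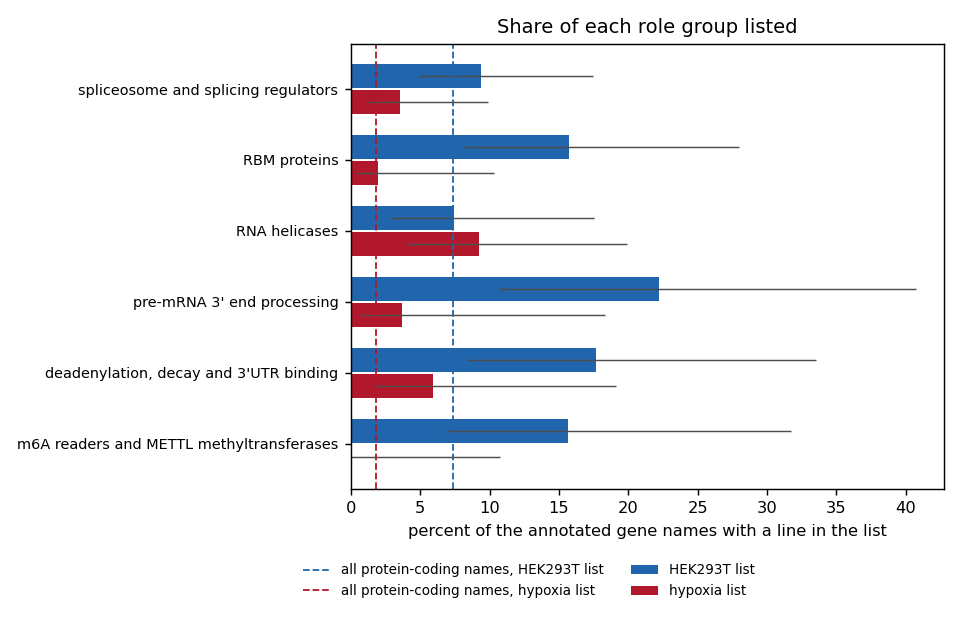
Share of the annotated gene names of each role group with a line in the HEK293T list (blue bars) or the hypoxia list (red bars), in percent, with 95% Wilson intervals (lines) and the shares over all protein-coding names (dashed). The 3′ end processing group had the highest share in the HEK293T list (22.2%). The RNA helicases had the highest in the hypoxia list (9.26%), a share that counts the line named DDX28, whose span lay mostly outside DDX28. The intervals of the role groups overlap.

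The spliceosome and splicing regulators gave 8 of 85 names (9.41%, interval 4.85 to 17.5%), and the 7.36% of all protein-coding names lies within that interval. They were SNRPA, an RNA-binding protein of the U1 snRNP, SNRPD2, a core Sm protein, SF3B5, a subunit of the U2 snRNP, PRPF18, a factor of the second step of splicing, PRPF4B, a spliceosomal kinase, HNRNPD, which binds AU-rich elements, HNRNPM, a splicing regulator, and the SR protein SRSF8. Their 10 lines had a median span of 654.5 bp. Lines named PRPF18 (180 bp) and SNRPA (270 bp) that touched no exon of these genes are counted in this median. The longest span, PRPF4B at chr6:4021569-4032409, had 10841 bp, of which 749 bp were exonic. The shortest was the second line named PRPF18, with 180 bp, which lay outside PRPF18. No LSM gene (0 of 15) and no SF3A gene (0 of 3) was listed, small counts to set beside 7.36% of all protein-coding names.

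The RBM proteins, which share an RNA recognition motif and differ in function, gave 8 of 51 names (15.7%, interval 8.17 to 28.0%). The 7.36% of all protein-coding names lies below that interval. They were RBM8A, the exon junction complex protein Y14, RBM4, a regulator of splicing and translation, RBM48, a factor of the minor spliceosome, RBM23, RBM34, RBM42, RBMS1 and RBMS2. Their spans had a median of 722 bp. RBM42 at chr19:36119918-36120154 had 237 bp, of which 223 bp were exonic. RBMS2 at chr12:56915609-56956266 had the longest span of all members, 40658 bp, of which 509 bp in 4 exons were exonic.

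The RNA helicases gave 4 of 54 names (7.41%, interval 2.92 to 17.6%), close to the 7.36% of all protein-coding names. They were DDX5, a helicase and transcriptional coactivator, DDX21, a nucleolar helicase, DDX23, a component of the U5 snRNP, and DDX41, a helicase also known as a sensor of cytosolic DNA. All 4 are DEAD-box genes, of 38 such names, and none of the 16 DEAH-box (DHX) names was in the HEK293T list. Both are small counts to set beside 7.36%. The median span was 2444.5 bp. It ranged from 887 bp for DDX5 at chr17:62502270-62503156, of which 864 bp were exonic and none coding, to 6512 bp for DDX23 at chr12:49239446-49245957, of which 306 bp were exonic.

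The 3′ end processing group had the largest share, 6 of 27 names (22.2%, interval 10.6 to 40.8%), and 7.36% lies below that interval. CPSF6 and CPSF7, the larger subunits of cleavage factor I, CSTF1 and CSTF3, subunits of the cleavage stimulation factor, CSTF2T, an intronless relative of its RNA-binding subunit CSTF2, and INTS12, an Integrator subunit, were listed. Of the 4 CSTF names, 3 were in the list, and of the 16 INTS names, 1 was. The spans had a median of 5829.5 bp. They ranged from 181 bp for CSTF3 at chr11:33182857-33183037, exonic throughout, to 11662 bp for CPSF6, with 208 exonic bp. CSTF2T has a single annotated TSS, and its span of 1591 bp at chr10:53457765-53459355 lay wholly in its exon, with 1545 coding bp, the most of any member.

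The group of deadenylation, decay and 3′UTR-binding proteins gave 6 of 34 names (17.6%, interval 8.35 to 33.5%), and 7.36% again lies below the interval. CNOT6, a deadenylase of the CCR4-NOT complex, EXOSC2, EXOSC4 and EXOSC8, core subunits of the RNA exosome, and PUM2, which binds Pumilio elements in 3′UTRs, were among them. Of the 10 EXOSC names, 3 were in the list, of the 11 CNOT names 1, and of the 10 PABP names 0. These too are small counts to set beside 7.36%. The median span was the shortest of the role groups, 347 bp, and the shortest span was that of a line of PUM2, with 61 bp. This line touched no exon of PUM2 and is counted in the median.

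The m6A readers and METTL methyltransferases gave 5 of 32 names (15.6%, interval 6.86 to 31.8%), and the 7.36% of all protein-coding names lies within that interval. YTHDF3, a cytoplasmic m6A reader, was the only listed member of 5 YTHD names. The METTL names were METTL1, which makes m7G in tRNA, METTL13, which methylates the elongation factor eEF1A, METTL23 and METTL27, of 27 in all. METTL3 and METTL14, the subunits of the m6A writer, were in no list; they were singled out after the values were seen. The median span was 1375 bp, from 857 bp for YTHDF3 to 6158 bp for METTL23 at chr17:74722912-74729069, with 965 exonic bp.

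Over all 40 lines, the members' spans had a median of 1100 bp (61 to 40658 bp) beside 1228.5 bp in the whole list, and 20 were at most 1000 bp long (50%, beside 47.3%). Counting exonic bases alone, the 37 lines that touched an exon of their gene had a median of 509 bp (47 to 1786 bp) beside 358 bp in the whole list. CNOT6, CSTF2T, CSTF3, HNRNPD and RBMS1 had spans that were exonic throughout. EXOSC8 had the longest exonic part, 1786 bp, in an annotated exon that covers all of the span downstream of its TSS, and PUM2 the shortest, 47 bp. More than 1 exon was touched by 24 of 40 members (60%, interval 44.6 to 73.7%), beside 51.3% of the whole list.

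**Figure D2:**
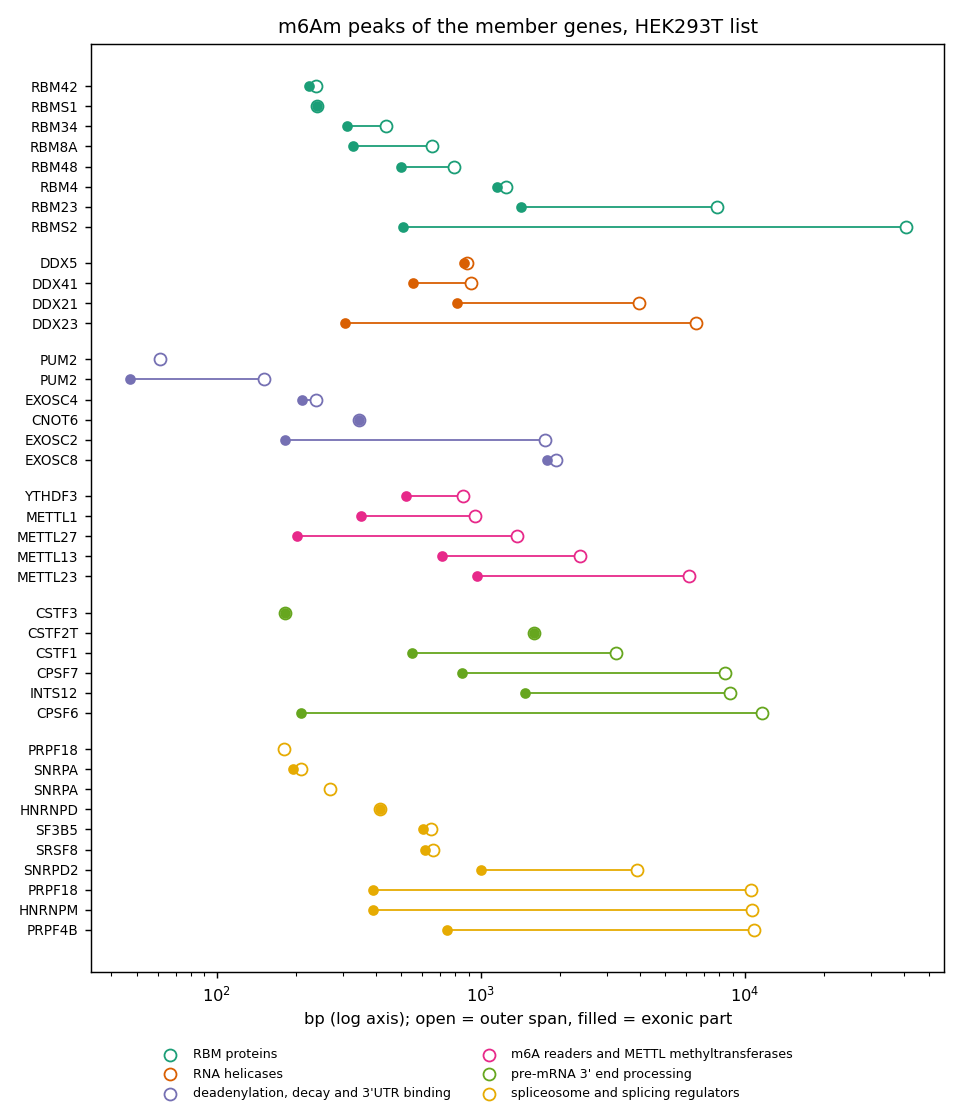
Length of the listed span (open circles) and of its part within exons of the named gene (filled circles) for 39 of the 40 HEK293T members, in bp on a log axis, grouped by role (colours). PRPF18, SNRPA and PUM2 each have 2 lines, and for 1 line of each no filled circle is drawn because no exon of the gene was touched, while RBMS2, at 40658 bp, has the longest span and an exonic part of 509 bp.

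The members' spans reached into coding sequence in 32 of 40 lines (80%, interval 65.2 to 89.5%), beside 61.7% of all lines whose gene was matched to the annotation and 65.7% of those of protein-coding genes. The former lies below that interval and the latter just within it, and no share was adjusted for the number of annotated transcripts. The coding part was short, with a median of 130 bp, beside 75 bp over the lines of protein-coding genes. The 8 lines without coding bases were those of DDX5, RBMS1 and CNOT6, the line of SNRPA at its own 5′ end, the longer line of PUM2, and the 3 lines that touched no exon of the named gene. The GC content of the exonic part had a median of 57.5%, beside 60.1%. The m6A motif, GGAC with any base but G after it, on the strand of the gene, occurred at least once in the exonic part of 31 of 37 lines (83.8%, beside 73.1% of the whole list), with a median of 3.93 per kb beside 3.22 per kb. The members' exonic parts were also longer, and no part of either difference was tested.

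Most member spans began at or close to a TSS of the named gene. An annotated TSS lay inside 36 of 40 spans (90%, interval 76.9 to 96.0%), beside 91.4% of the whole list. At most 100 bp separated the 5′ end from a TSS in 32 of 40 members (80%), beside 79.6%, and the median distance was 13 bp beside 17 bp. It fell on a TSS in 11 lines, upstream of the nearest TSS in 22 and downstream in 7. Since a 5′ peak had to overlap the m7G-IP signal to be kept, this position is in part set by how the list was made.

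The nearest TSS started with A in 18 of 40 members (45%, interval 30.7 to 60.2%), with G in 17, with C in 5 and with T in 0. The whole list had 44.8% A, 35.8% G, 15.3% C and 4.09% T. The trinucleotides CCA, GCA or TCA, with the A at the TSS, were found at 13 of 40 (32.5%, interval 20.1 to 48.0%), beside 27.2% of the list. Over all 146567 annotated TSSs of protein-coding genes, 32.5% started with A and 14.7% with 1 of these trinucleotides. The members with such a start included PRPF18, RBMS1, SF3B5, METTL13, METTL27, RBM4, RBM23, RBMS2, DDX5, DDX41, EXOSC8 and PRPF4B. Any A-starting TSS of the gene inside the span was found in 33 of 40 (82.5%, interval 68.1 to 91.3%), beside 74.1%. The members' genes also had more annotated TSSs, a median of 10 beside 8 in the whole list, and the share was not adjusted for this. The members without an A-starting TSS in the span were CNOT6, EXOSC4 and RBMS2, and the 4 lines that held no TSS at all.

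Some listed spans lay outside the exons of the gene they were named for. No exon of the named gene was touched by 3 of 40 members (7.5%, interval 2.58 to 19.9%), beside 3.45% of the list. The second line named PRPF18, chr10:13749388-13749567, lay 38943 bp outside PRPF18 and wholly within an exon of FRMD4A, on the opposite strand, with a TSS of FRMD4A inside it. The first line named PRPF18, chr10:13628939-13639513, began on the TSS of PRPF18 shown above and had 10575 bp, of which 391 bp in 3 exons were exonic.

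Both lines named SNRPA lay at the same promoter. The span chr19:41256189-41256458, of 270 bp, ended 84 bp before SNRPA and lay wholly within an exon of ACTMAP, on the opposite strand, with its TSS. The other, chr19:41256759-41256966, of 208 bp, had 195 bp in an exon of SNRPA. The third of these lines was a span of 61 bp named PUM2, chr2:20550685-20550745, in an intron of PUM2 at 136 bp from the nearest TSS. The longer PUM2 line, chr2:20551949-20552099, had 151 bp and 47 exonic bp and held 2 TSSs. The 4 lines without a TSS of the named gene in the span were these 3 and PRPF4B, whose span began 35 bp downstream of a TSS.

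A TSS of another protein-coding gene lay in 6 of 40 member spans (15%, interval 7.06 to 29.1%), beside 12.0% of the list. Besides FRMD4A and ACTMAP, these were EEF1AKMT3 in the span of METTL1, ALG5 in that of EXOSC8, CEP95 in that of DDX5 and ARHGEF38 in that of INTS12. Because the lists give no strand, the transcript that carried the peak cannot be told apart in the spans of METTL1, EXOSC8, DDX5 and INTS12. The spans with a TSS of FRMD4A or ACTMAP had 0 exonic bp in the gene they were named for, and lay wholly in exons of FRMD4A (180 bp) and ACTMAP (270 bp). No line in any list was named FRMD4A or ACTMAP, or by an older symbol of either.

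Under heat shock, none of the members was listed. With 0 of 74 lines, a share of up to 4.05% is allowed by the count of 0, which exceeds the members' share of the HEK293T list (2.42%), so a difference was not detectable with a list of this size. None of the 40 HEK293T members overlapped a heat shock peak under any name (0%, interval 0 to 8.76%), beside 2.54% of the whole list.

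Under hypoxia, 12 members were listed, 3.08% of the lines (interval 1.77 to 5.30%) and 4.24% of the 283 names (interval 2.44 to 7.26%), beside 1.80% of all protein-coding names. The share over all names lies below the latter interval, but how many of those names had an mRNA in these cells is not known. By lines, the members' share of the HEK293T list (2.42%) lies within the former interval. By name, they were 5 RNA helicases, 3 splicing proteins, 2 exosome subunits, 1 RBM protein and 1 protein of 3′ end processing. The helicase count and share include the line named DDX28, a span of 14844 bp with 51 exonic bp in DDX28. The same span held 870 exonic bp of DUS2, on the opposite strand, so its place among the helicases is uncertain. No METTL or YTHD name was listed (0 of 32, beside 1.80% of all protein-coding names). The helicases made up 9.26% of their 54 names (interval 4.02 to 19.9%), the splicing group 3.53% of 85, the decay group 5.88% of 34, the 3′ end group 3.70% of 27 and the RBM proteins 1.96% of 51.

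In the deposited table, each hypoxia line has a value of the hypoxic over the untreated cells. Its heading names a log2 fold change, but no value is negative and the values pile up just above 2, so these values are given here as linear ratios. The study's methods set a 2-fold difference as the limit for listing, beside a p-value limit in the differential calling. A value above 2 is thus in large part set by how the list was made and is no finding by itself. The list also held values within the 2-fold limit, among them a raised line at 1.80 and lowered lines up to 0.955. All 12 members were raised (100%, interval 75.8 to 100%), beside 359 of 390 lines (92.1%). The members had a median ratio of 2.32 and ranged from 2.01 to 3.07, and the 359 raised lines had a median of 2.31 and ranged from 1.80 to 16.7. The list gives no mRNA level beside the ratio, so more mRNA and more m6Am per mRNA cannot be told apart here, and with 1 value per line no error can be given. The paper reports unaltered mRNA levels for most genes with stress-regulated peaks, but the mRNA levels of the members were not analysed here.

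Among the helicases, the ratio was 2.40 for DHX15, which takes the spliceosome apart, and 2.39 for the line named DDX28, a helicase of mitochondrial ribosome assembly. It was 2.33 for DHX36, which unwinds G-quadruplexes, 2.25 for DDX41 and 2.22 for DHX57. From the highest ratio down, these 5 ranked between 116 and 232 among the 359 raised lines. The DEAH-box genes, with 0 names in the HEK293T list (beside 7.36% of all protein-coding names), gave 3 of the 16 DHX names here (beside 1.80%). These are small counts, and the contrast between the lists was not tested.

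Of the splicing proteins, SRSF7, an SR protein that also acts in mRNA export, had a ratio of 2.44, and SRSF1, the founding SR protein, had 2.01. SRSF1 was the member nearest to the 2-fold limit, at rank 351 of the 359 raised lines. RBM10, a splicing regulator, had 2.40.

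The exosome subunits differed most from each other. EXOSC8 had a ratio of 3.07, the highest of the members and at rank 43 of the raised lines, and EXOSC2 had 2.26. EXOSC8 was the only member with a ratio of at least 3 (8.33%, interval 1.49 to 35.4%), beside 11.0% of the list. CPSF6, of 3′ end processing, had 2.11. Without EXOSC8, the members ranged from 2.01 to 2.44 with a median of 2.32.

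**Figure D3:**
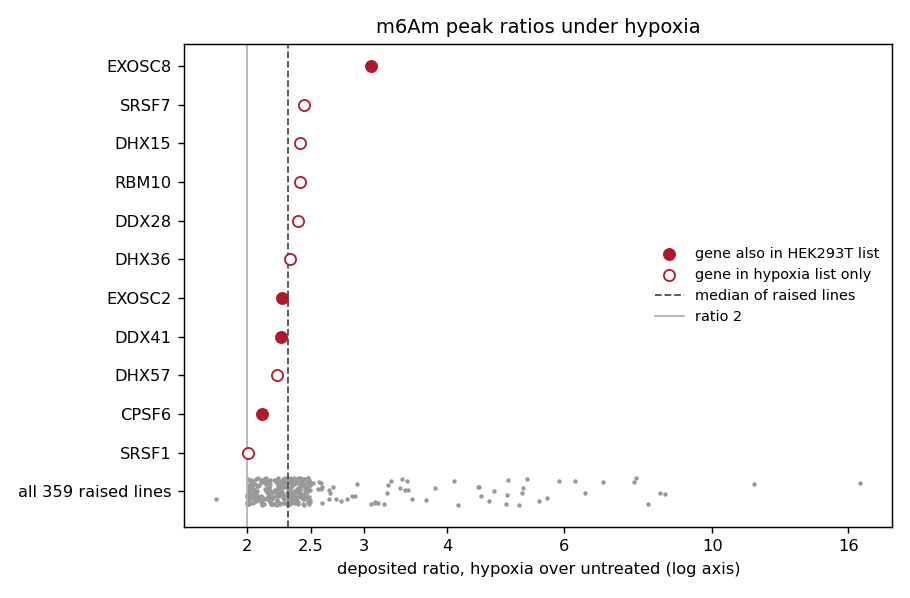
Deposited ratio of hypoxic to untreated cells (log axis, no unit) for 11 of the 12 members of the hypoxia list and for all 359 raised lines (grey points, spread vertically for view). Filled circles are genes that are also in the HEK293T list, open circles those in the hypoxia list only, the dashed line is the median of the raised lines and the solid line a ratio of 2. All members drawn but EXOSC8 (3.07) lie between 2.01 and 2.44.

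Only 4 of the 12 hypoxia members were also in the HEK293T list, CPSF6, DDX41, EXOSC2 and EXOSC8. Each overlapped the HEK293T peak of its own name (33.3%, interval 13.8 to 60.9%), beside 56.4% of the hypoxia list. That share lies within the interval. The other 8, among them SRSF1, SRSF7, RBM10, DDX28, DHX15, DHX36 and DHX57, overlapped no HEK293T peak under any name. Seen from the HEK293T list, 4 of 40 members overlapped a hypoxia peak (10%, interval 3.96 to 23.1%), beside 13.5% of the list. Among HEK293T spans of at most 1000 bp, the members' share was 5%. No share of the whole list over such short spans is given here, so this value cannot be set beside 13.5%. The ratio had a median of 2.26 in the 4 shared members and of 2.36 in the other 8, and the raised lines of the whole list had medians of 2.28 and 2.32. The HEK293T list was made from the wild-type libraries and the hypoxia list from other libraries, so a gene in the hypoxia list only is not shown to lack the mark in cells under normal oxygen.

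In the 4 shared genes, the edges of the spans nearly coincided. For CPSF6, the HEK293T span chr12:69633317-69644978 and the hypoxia span chr12:69633317-69645008 had the same 5′ edge, and the hypoxia span ended 30 bp farther 3′. For EXOSC2, the spans chr9:133569147-133570904 and chr9:133569147-133570934 differed in the same way. For DDX41, on the minus strand, the HEK293T span chr5:176943410-176944327 and the hypoxia span chr5:176943380-176944297 were equal in length (918 bp), and both edges of the latter lay 30 bp farther 3′.

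EXOSC8 was the exception. Its hypoxia span, chr13:37574795-37577099, began 29 bp farther 3′ than its HEK293T span, chr13:37574766-37576688, and ended 411 bp farther 3′, so that 82.2% of the hypoxia span lay within the HEK293T span. The added stretch brought a second exon into the span and raised its coding part from 118 to 147 bp. Both edges were within 30 bp in 3 of the 4 pairs, beside 110 of the 216 pairs of equal name that overlapped in the whole lists, and 0 of the 4 were identical, beside 42 of 216.

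**Figure D4:**
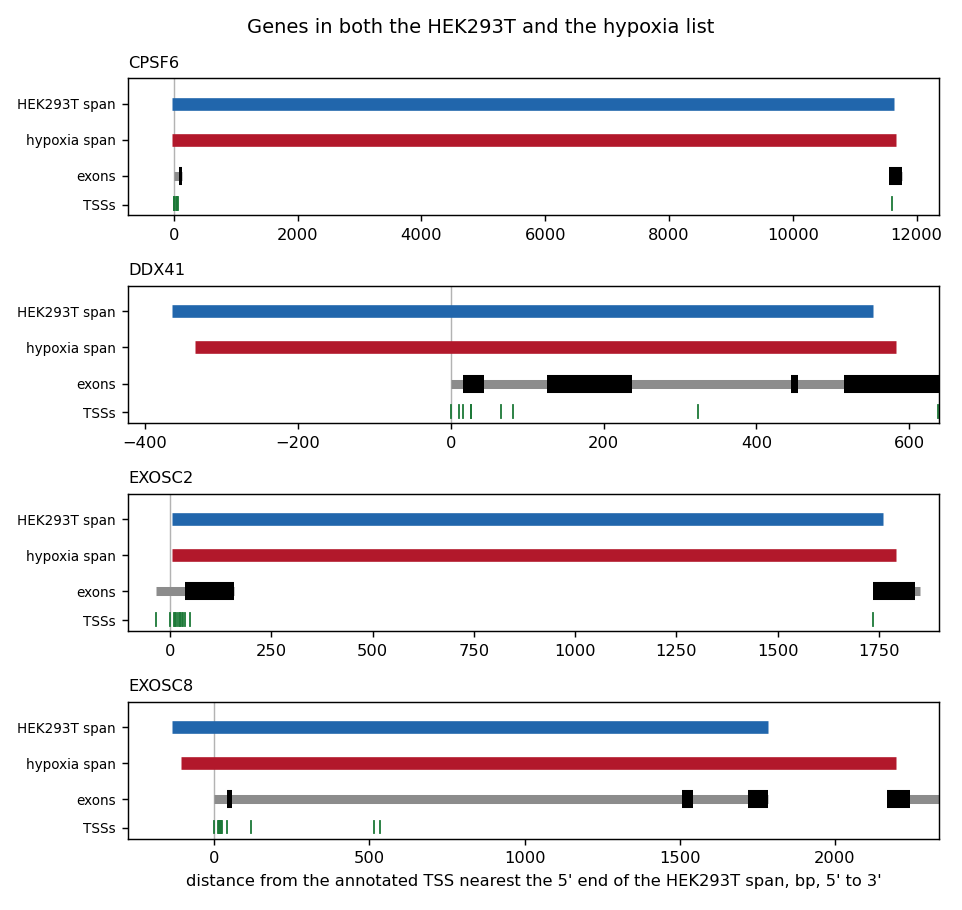
Map of the 4 genes in both lists, with the HEK293T span (blue), the hypoxia span (red), exons (grey, coding parts black) and annotated TSSs (green), in bp from the annotated TSS nearest to the 5′ end of the HEK293T span, in the direction of transcription. The edges of the spans of CPSF6, DDX41 and EXOSC2 lie within 30 bp of each other, and in EXOSC8 the hypoxia span reaches 411 bp farther 3′.

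The hypoxia members' spans had a median of 1674 bp (210 to 14844 bp) beside 1287 bp in the whole list, and 4 of 12 were at most 1000 bp long (33.3%, beside 47.4%). The shortest was RBM10 at chrX:47004617-47004826, with 210 bp, of which 207 bp were exonic and none coding. SRSF1 at chr17:56084438-56084707 had 270 bp and DHX36 at chr3:154041986-154042286 had 301 bp, with 291 exonic bp. SRSF7 at chr2:38977332-38978636 had 1305 bp, of which 586 bp in 3 exons were exonic.

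The longest spans were those of CPSF6 and of 3 helicases. DHX57 at chr2:39095491-39103075 had 7585 bp, with 210 exonic bp, and DHX15 at chr4:24578301-24586184 had 7884 bp, with 555 exonic bp in 4 exons. The line named DDX28, chr16:68057085-68071928, had 14844 bp, of which 51 bp lay in the exon of DDX28. The same span held 870 exonic bp and a TSS of DUS2, on the opposite strand, and its 5′ end in the direction of DDX28 lay 14793 bp from the TSS of DDX28. No line in any list was named DUS2, or by an older symbol of it. Without the line named DDX28, the members' median ratio was 2.32 as well.

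The exonic part of the hypoxia members had a median of 280.5 bp, beside 331 bp in the list, and a GC content of 61.5%, beside 61.9%. More than 1 exon was touched by 7 of 12 (58.3%, interval 32.0 to 80.7%), beside 50.1%, and no member touched no exon (0 of 12, beside 3.79%). Coding sequence was reached by 11 of 12 (91.7%, interval 64.6 to 98.5%), all but RBM10, beside 59.9% of the matched lines and 62.3% of those of protein-coding genes. Both of these shares lie below the interval. The count of 11 includes the line named DDX28, with 21 coding bp. Coding sequence was merged over all transcripts of a gene, and the share was not adjusted for their number or for span length. The median coding part was 109.5 bp, beside 66 bp over protein-coding genes. The m6A motif had a median of 3.90 per kb, beside 3.91 per kb.

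An annotated TSS of the named gene lay in all 12 hypoxia spans (interval 75.8 to 100%), beside 90.8% of the list, and at most 100 bp separated the 5′ end from a TSS in 8 of 12 (66.7%, beside 77.5%). The farther ones included EXOSC8 at 108 bp, DDX41 at 335 bp and DDX28. The nearest TSS started with A in 7 of 12 (58.3%, interval 32.0 to 80.7%), beside 42.0%. The trinucleotides CCA, GCA or TCA at the TSS were found in 5 of 12 (41.7%, interval 19.3 to 68.0%), DDX41, DHX36, DHX57 and EXOSC8 among them, beside 23.3%. In SRSF7 and RBM10, the A at the TSS followed a T, as the sequences above show. Both shares over the list lie within the intervals of the members.

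An A-starting TSS anywhere in the span was found in 10 of 12 (83.3%, interval 55.2 to 95.3%), beside 74.3%. Here too the members' genes had more annotated TSSs, a median of 11 beside 8. SRSF1, CPSF6 and EXOSC2, whose nearest TSS is a G, each had 1 or more A-starting TSSs elsewhere in the span, whereas DHX15, with 3 TSSs in the span, and DDX28, with 1, had none. A TSS of another protein-coding gene lay in 2 of 12 spans (16.7%, interval 4.70 to 44.8%), those of DDX28 and EXOSC8, beside 11.4%. For EXOSC8, the member with the highest ratio, this was ALG5, as in the HEK293T list.

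Genes of the same pathways that the name rule leaves out were looked up in a list of 95 names. RBM15, RBM15B and PABPN1 on it also fit the name rule, and a few of its names are older symbols of other names on it. Of the 95 names, 21 were found in the HEK293T list, 0 in the heat shock list and 7 in the hypoxia list. The shares over all protein-coding names were 7.36% in the HEK293T list and 1.80% in the hypoxia list. All 7 were raised, as were 92.1% of the lines of the hypoxia list. Of 25 names of cap and m6A or m6Am enzymes and cap-binding proteins, 4 were in the HEK293T list. They were NCBP1 and NCBP2, the subunits of the nuclear cap-binding complex, the cap-binding translation factor EIF4E and the decapping cofactor DCP1B. PCIF1 and FTO were in no list. NCBP1 also had a hypoxia peak, with a ratio of 2.32.

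Of 32 splicing genes outside the name rule, 9 were in the HEK293T list, beside the same 7.36% of all protein-coding names. In the hypoxia list, SLU7, a factor of the second step, had a ratio of 2.28, MAGOHB, of the exon junction complex, 2.43, QKI 2.45 and MBNL2, a regulator of alternative splicing like QKI, 4.10. Of 10 genes of 3′ end processing, 5 were in the HEK293T list (again beside 7.36%), and PCF11, a termination factor, had a hypoxia ratio of 2.48. Of 28 names of RNA decay genes, among them MTREX and its older symbol SKIV2L2, 3 were in the HEK293T list (beside 7.36%). MTREX, the helicase of the nuclear exosome, had a hypoxia ratio of 2.45. NCBP1, SLU7, PCF11 and MTREX were thus in both lists, and MAGOHB, QKI and MBNL2 in the hypoxia list only.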

How the data were processed

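m6Am-seq libraries of HEK293T cells were grouped by their labels, and the stress conditions follow the methods. Per the labels, the submitters' processing notes name Trim Galore 0.6.6, Cufflinks and hg19, and the methods name cutadapt, HISAT2, exomePeak, MACS2 and DESeq2. The authors called m6Am peaks where the FTO (-) signal exceeded the FTO (+) signal by more than 2-fold and the peak overlapped an m7G-IP peak, and deposited them as positions with gene names. For each stress peak, a ratio (stress over control) from their differential calling was deposited too. How replicates were combined is not given in the sources used here, and the depth of the libraries is unknown.

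Positions were read as GRCh37, counted from 1: all 2116 lines lay on its chromosomes, and 174 starts in the HEK293T list were also the start of an annotated exon, beside 3 and 11 after a shift of 1 base either way. Gene names were matched to Gencode release 44 on the same chromosome, for 1566 of 1652 lines in the HEK293T list, 369 of 390 in the hypoxia list and all 52 member lines. Shares of position and sequence are over the matched lines. Exons and coding sequence were merged over all annotated transcripts of a gene, so exonic and coding lengths can grow with the number of transcripts. Spans that had at least 1 bp in common were taken to overlap. The intervals of shares are 95% Wilson intervals, and the limit that a count of 0 allows rests on 3 counts. No test was run, since the lists hold neither counts nor replicates.

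The members and lists were chosen with earlier results of these data known. By rule, every member was named in its role group, but some members are counted and not reported here by name. Spans were given for members in a stress list, members with more than 1 line and the shortest and longest of each role group, with exceptions named where a span was exonic throughout. TSS sequences were given for the hypoxia members and for 7 of the 11 HEK293T members whose span began on a TSS. Other pathway genes were named where they were in a stress list, the cap-related ones in the HEK293T list being added after their values were seen. Overlap, distance and interval functions were tested on simulated data. Alternatives were other units of counting, current symbols, stricter ratios and overlaps, short spans, protein-coding transcripts and, added after the data were seen, single lines left out. CAGE signal, read coverage and 5′-UTR m6A peaks were not analysed here. Sequences were read with pyfaidx 0.9.0.4 after indexing with samtools 1.23.1, intervals were computed with SciPy 1.17.1 and NumPy 2.4.6 in Python 3.11.15, and plots were drawn with Matplotlib 3.10.9.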

Additional observations from a re-analysis of the deposited data

How the results depend on the processing

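The counts, shares and medians of the members were recomputed under 26 alternatives. In 23 of them the value kept its direction and stayed within its interval, its spread or 1.5 times its count. Some of these could hardly change a value. Each hypoxia member had 1 line, so counting by gene or by distinct span gave the same figures, and a ratio of at least 2 is the study's own limit for listing. Counting only ratios of at least 3 left 1 of the 12 raised hypoxia members. Counting any A-starting TSS in the span gave 82.5% of the HEK293T members in place of 45% for the nearest TSS. Keeping only lines that touch an exon of the named gene, an alternative chosen after seeing the data, gave 97.3% with a TSS in the span in place of 90%. The share of HEK293T members that overlapped a hypoxia peak was 5% over spans of at most 1000 bp, in place of 10%, with no whole-list share over such spans beside it. The median ratio was 2.26 over names also in the HEK293T list and 2.29 over spans of at most 1000 bp, in place of 2.32. The median span of 1100 bp was 509 bp in its exonic part and 1375 bp over the longest span of each gene. No paired analysis was possible because each list holds 1 set of peaks per condition and carries no replicate, so leaving out a replicate could not be run either. The ratios have no error, and depth, mRNA level and strand are unknown for every line.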
